A study of Homo sapiens with 72 samples.

Results

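Matrix metalloproteinases are secreted or membrane-bound zinc proteases that cut the extracellular matrix, and the tissue inhibitors of metalloproteinases (TIMPs) bind and block them. Measured here were 9 genes of this system, taken by gene symbol from each of 11 deposited tables of 61541 genes. They are the stromelysins MMP3 (ENSG00000149968) and MMP10 (ENSG00000166670), the collagenases MMP1 (ENSG00000196611) and MMP13 (ENSG00000137745), the gelatinase MMP2 (ENSG00000087245), the membrane-type protease MMP14 (ENSG00000157227), and the inhibitors TIMP1 (ENSG00000102265), TIMP2 (ENSG00000035862) and TIMP3 (ENSG00000100234). The set was chosen by the deposited fold changes of unstressed wild-type rescue against knockout, which MMP3 led, so the values of all 9 genes in that table are given as a description without a p-value, and nothing is read from the authors' calls in it.

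The study concerns G3BP1, an RNA-binding protein that nucleates stress granules, the cytoplasmic assemblies of RNA and protein that form when translation initiation is blocked. Of its 72 libraries, 24 in 11 groups bear on these tables; 48 libraries of an RNA-editing assay were not analysed here. Poly-A RNA was sequenced from U2OS, a human osteosarcoma cell line, in 9 groups of 2 libraries each. An immunoprecipitation from an embryonic kidney line gave 3 libraries of precipitate and 3 of input.

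The first U2OS experiment had 3 groups, none stressed: wild-type cells, untreated G3BP1/2 knockout cells, and knockout cells 24 h after lipofection of a G3BP1 transgene (the G3BP1 rescue). The second had 6 groups, all of the G3BP1/2 knockout genotype: untransfected cells, cells 24 h after lipofection of WT G3BP1 (the wild-type rescue), and cells 24 h after lipofection of a G3BP1 mutant that lacks the NTF2 domain (the NTF2-deletion rescue). Each of the 3 was taken without stress and after 200 uM sodium arsenite for 2 h. The precipitation line, FlpIn 293 Trex, stably expressed FLAG-G3BP1 under 1 ug/mL tetracycline for 24 h, in precipitate and input alike. No group received an empty vector, so transfection and G3BP1 cannot be told apart in any rescue against knockout. The labels do not say whether the knockout line is 1 clone, or whether the libraries of a group came from separate cultures. The p-values therefore measure only the spread between these libraries, which may be technical.

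As background, MMP3 and MMP10 cut proteoglycans, laminin and other non-fibrillar matrix and can activate the latent forms of other proteases. MMP1 and MMP13 start the cleavage of fibrillar collagen. MMP14 sits on the cell surface, where TIMP2 tethers latent MMP2 to it for activation, while an excess of TIMP2 blocks the same complex. The genes MMP1, MMP3, MMP10 and MMP13 share a cluster on chromosome 11 and are known targets of the AP-1 (FOS and JUN) transcription factors, whereas MMP2, MMP14 and TIMP2 are commonly expressed without stimulation in mesenchymal cells.

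RefSeq promoter sequences were at hand for MMP10, MMP14, TIMP1 and TIMP3. The 250 bases before the start site are shown for 3 of them, because MMP10 lies in the same cluster as MMP3 and TIMP1 and MMP14 moved in opposite directions in the rescues. Capitals mark matches to the AP-1 motif TGANTCA, the related TGAGTAA or the TATAAA box, each searched on both strands (GRCh38.p14).
MMP10, chr11:102780629-102780878, minus strand: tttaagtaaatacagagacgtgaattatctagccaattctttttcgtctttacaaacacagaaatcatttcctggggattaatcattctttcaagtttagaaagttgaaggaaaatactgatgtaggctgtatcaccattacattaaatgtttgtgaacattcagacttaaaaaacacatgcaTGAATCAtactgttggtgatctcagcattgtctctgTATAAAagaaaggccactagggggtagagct
TIMP1, chrX:47582186-47582435, plus strand: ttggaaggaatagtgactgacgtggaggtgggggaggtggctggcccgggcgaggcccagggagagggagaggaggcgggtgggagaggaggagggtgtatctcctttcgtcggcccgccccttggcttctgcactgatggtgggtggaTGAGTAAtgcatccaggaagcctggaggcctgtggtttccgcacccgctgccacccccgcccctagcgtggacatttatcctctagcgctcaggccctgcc
MMP14, chr14:22836335-22836584, plus strand: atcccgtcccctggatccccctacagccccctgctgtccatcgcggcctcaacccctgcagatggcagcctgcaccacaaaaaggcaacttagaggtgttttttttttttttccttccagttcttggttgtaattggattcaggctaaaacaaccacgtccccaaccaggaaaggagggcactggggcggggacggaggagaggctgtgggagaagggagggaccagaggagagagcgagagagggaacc

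MMP10 held TGAATCA from -67 to -61 and TATAAA from -31 to -26, counted from the start site, and TIMP1 held TGAGTAA from -101 to -95. MMP14 and TIMP3 held none of the 3 motifs in this window. Among all 35116 RefSeq promoter windows of this length, 6.57% held TGANTCA, 2.21% TGAGTAA and 6.8% TATAAA. A match is a run of letters and was not tested as a binding site.

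The targeted gene was read first. G3BP1 stood at 12479 and 12443 normalised reads in the 2 knockout libraries of the first experiment, 18824 and 17932 in wild type and 20007 and 20307 in the G3BP1 rescue. In the second experiment it was 3312 and 3331 in knockout, 544266 and 517415 in the wild-type rescue and 738742 and 701932 in the NTF2-deletion rescue. Normalised reads are whole reads per library, worked out here from the deposited base means, divided by the library's size factor, on one scale per experiment, that of its knockout libraries. The G3BP1 transcript was thus still counted in knockout cells, and the rescue exceeded knockout 1.62-fold in the first experiment but 160-fold in the second. The 2 experiments were normalised separately and their levels were not compared by a test. Reads of the transgene and of the endogenous gene were not separated.

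Depth, in units of 1e6 (M), averaged 44.22 to 46.95 M gene reads per library over the tables of the first experiment, 11.99 to 17.89 M over those of the second and 12.17 M in the precipitation. Among genes whose base mean reached 100, the median log2 fold change of the 4 rescue-against-knockout tables of the second experiment lay between 0.17 and 0.22 and not at 0. Of 9 mesenchymal and osteoblast-lineage markers, VIM was at 61191 and 58229 and COL1A1 at 23636 and 22635 normalised reads in first-experiment knockout. SPARC was at 67953 and 63011 there and CDH2 at 7967 and 7430, whereas COL1A2 was at 13.1 and 8.05 and BGLAP at 8.70 and 11.5. The sum of this list was 162008.5 and 152576.5 in that knockout against 341393.4 and 325523.8 in wild type. Of 8 tested, 5 were called lower and 1 higher in knockout, where 19.4% and 18.4% of all genes were. COL1A1 averaged 23136 in knockout against 153958 in wild type and RUNX2 516 against 1357, whereas ALPL averaged 729 against 57.3. The labels call the cells epithelial, and the summed list of 5 epithelial markers was 373 to 590 normalised reads per library in the first experiment, against 46.1 to 114.4 on the scale of the second. EPCAM made up most of it, averaging 351 to 505 per group in the first experiment beside 19.9 to 36.6 for CDH1, whereas KRT19 and CLDN7 averaged at most 1.4 in every U2OS group. The osteoblast marker SP7 was at or near 0. A summed list of 5 embryonic kidney 293 markers was 5087.5 and 4955.7 in first-experiment knockout, mostly NEFL (mean 3042) and LIN28B (1441). Of markers of other cell types, the summed endothelial list was 291 to 310 normalised reads in first-experiment knockout against 16.0 to 25.7 in wild type, and 114.3 to 114.4 in second-experiment knockout against 16.2 to 16.6 in the wild-type rescue. The summed leukocyte list was 1414 to 1499 against 66.2 to 66.7, and 302.5 to 363 against 158 to 164, in the same groups. These sums rested on VWF and ITGAM; CD3E was at 0 in all 6 libraries of the first experiment, LYZ averaged at most 1.5, and the pan-leukocyte gene PTPRC was higher in wild type (41.6) than in knockout (1.6). The part of these differences in the results below was not tested. In bulk RNA, fewer cells with a transcript and less transcript per cell cannot be told apart.

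MMP3 was low in knockout cells, intermediate in wild type and highest in the G3BP1 rescue. Its normalised reads were 18.3 and 32.2 in the knockout libraries, 199.8 and 257 in wild type, and 2301 and 3062 in the rescue. The 3 groups did not overlap, with wild type 9.05-fold and the rescue 106-fold above knockout, and the rescue 11.9-fold above wild type. The authors' deposited tables, made with DESeq2 and shrunk toward 0, put knockout against wild type at -2.79 log2 (SE 0.30, adjusted p = 3.42e-19). Knockout stood below G3BP1 rescue by -4.85 (SE 0.28; adjusted p = 6.94e-65) and wild type below rescue by -2.97 (SE 0.22; adjusted p = 1.13e-40), again from the authors' deposited tables. The rescue cells therefore did not return to the wild-type level of MMP3 but passed it. These 3 tables share libraries, so their calls are not independent of each other.

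**Figure D1:**
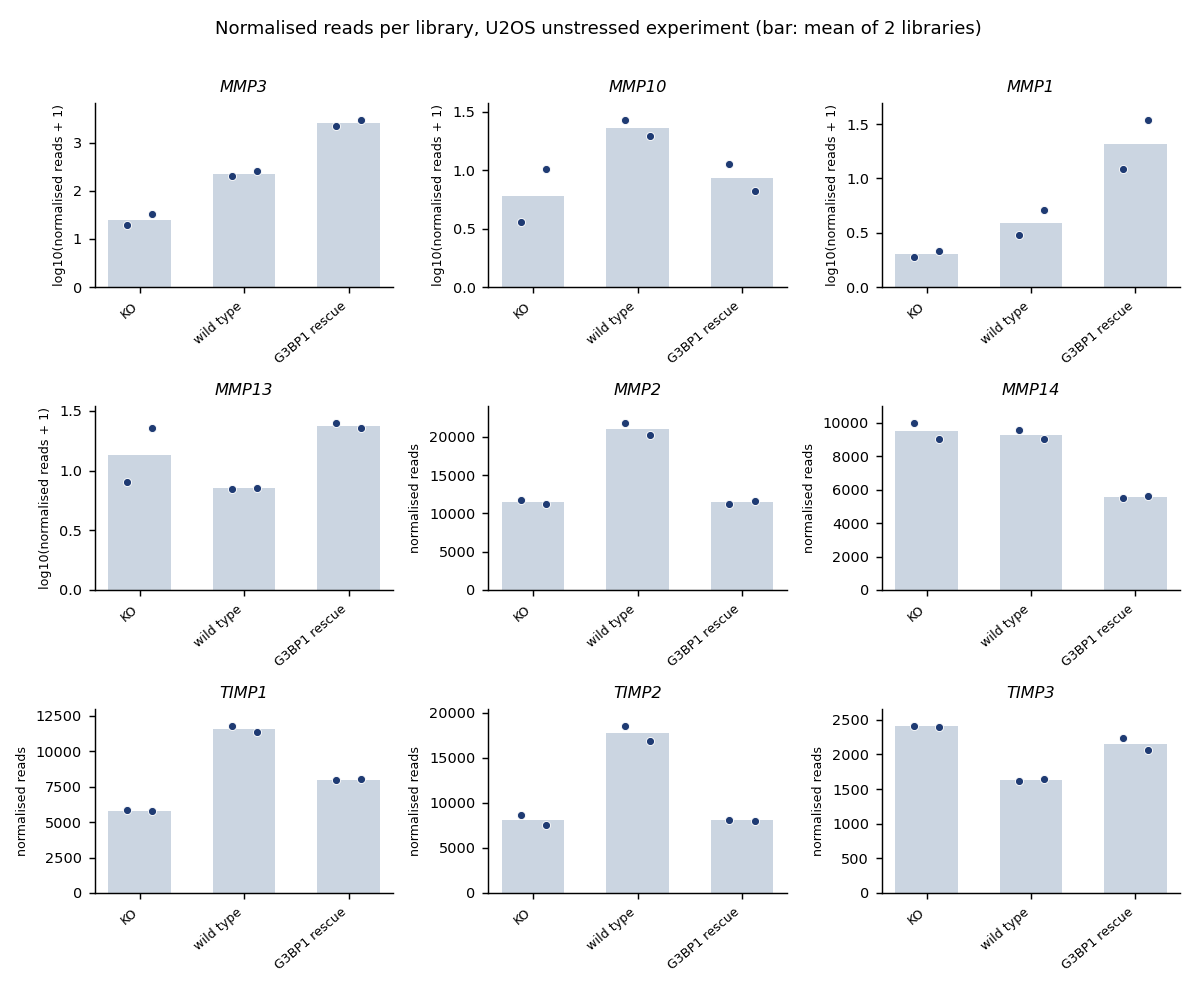
Normalised reads of the 9 genes in the first, unstressed U2OS experiment, each panel with its own axis; points are the 2 libraries of a group and bars their mean, on a log10(normalised reads + 1) scale for MMP3, MMP10, MMP1 and MMP13 and on a linear scale for the others. MMP3 climbs from 18.3 and 32.2 in knockout to 2301 and 3062 in the G3BP1 rescue, while MMP2 and TIMP2 of the rescue lie beside knockout.

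MMP1, the interstitial collagenase, was near the limit of counting in unrescued cells. It had 0.87 and 1.15 normalised reads in knockout, 2.01 and 4.11 in wild type, and 11.2 and 33.7 in the rescue. The rescue was 22.2-fold above knockout (95% exact counting interval 5.83 to 189, which covers counting error only), 33.4-fold without its library A and 11.1-fold without its library B. The authors' deposited table called knockout against rescue at -0.98 log2 (SE 0.30, adjusted p = 0.00387). It also called wild type against rescue (authors' deposited table, -0.70, SE 0.26, adjusted p = 0.0251), a ratio of 7.40 that became 3.70 without rescue library B, 11.1 without rescue library A and 11.3 without wild-type library B. Knockout against wild type had no adjusted p for MMP1.

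MMP10 and MMP13, the other cluster genes among the 9, did not pass the threshold in the first experiment. MMP10, the second stromelysin, had 2.61 and 9.19 normalised reads in knockout, 26.1 and 18.5 in wild type, and 10.25 and 5.62 in the rescue. Its highest levels were in wild type rather than in the rescue, and the authors' deposited table gave -0.96 (SE 0.46, adjusted p = 0.0871) for knockout against wild type. MMP13, collagenase 3, had 6.96 and 21.8 in knockout, 6.02 and 6.16 in wild type, and 24.2 and 21.5 in the rescue. The rescue libraries of MMP13 lay 3.79-fold above wild type without overlap, at an adjusted p of 0.0671 in the authors' deposited table.

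MMP2, the gelatinase that TIMP2 presents to MMP14, was less abundant in knockout than in wild type, and the rescue stayed at the knockout level. It had 11692 and 11168 normalised reads in knockout, 21839 and 20269 in wild type, and 11282 and 11617 in the rescue. Knockout against wild type was -0.88 (SE 0.05; adjusted p = 5.03e-60, authors' deposited table). Knockout and rescue overlapped, at 0.00 (SE 0.05; adjusted p = 0.98, authors' deposited table). MMP14, the cell-surface activator of MMP2, behaved in another order. It was 10018 and 9043 in knockout, 9571 and 9033 in wild type, and 5534 and 5649 in the rescue. Knockout and wild type overlapped (authors' deposited table, 0.04, SE 0.06, adjusted p = 0.726), whereas the rescue fell below both, 1.70-fold below knockout (authors' deposited table, 0.76 for knockout against rescue, SE 0.06, adjusted p = 1.1e-39).

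The 3 inhibitors followed 3 different orders in the first experiment. TIMP1, a soluble inhibitor of most of the secreted enzymes, had 5837 and 5759 normalised reads in knockout, 11811 and 11386 in wild type, and 7958 and 8037 in the rescue. The rescue lay between the other groups, above knockout (authors' deposited table, -0.46 for knockout against rescue, SE 0.05, adjusted p = 1e-19) and below wild type (authors' deposited table, 0.52, SE 0.05, adjusted p = 3.3e-27). TIMP2 had 8657 and 7508 in knockout, 18587 and 16847 in wild type, and 8147 and 8015 in the rescue. Like MMP2 it was below wild type in knockout (authors' deposited table, -1.11, SE 0.12, adjusted p = 8.23e-19), and rescue and knockout overlapped (0.00, SE 0.06, adjusted p = 0.992, in the same authors' deposited tables). TIMP3, the inhibitor that stays bound to matrix, went the other way: 2416 and 2392 in knockout, 1611 and 1639 in wild type, 2231 and 2071 in the rescue. Knockout exceeded wild type by 0.56 (SE 0.08; adjusted p = 1.56e-11, authors' deposited table).

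Counted over the members, 5 of the 8 with an adjusted p were called in knockout against wild type, 1 higher and 4 lower, in the authors' deposited table, where 37.8% of all tested genes were called, 18.4% higher and 19.4% lower. Knockout against G3BP1 rescue called 4 of 9 members against 37.6% of all genes, and wild type against G3BP1 rescue 7 of 9 against 35.6% (authors' deposited tables). The median of the members tested was -0.92, -0.10 and 0.49 log2 in these 3 comparisons, and that of all genes tested 0.01, 0.01 and 0.00. The 4 of 9 of knockout against G3BP1 rescue lies near its background.

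In the second experiment MMP3 was nearly absent from knockout cells and abundant in both rescues. It had 3.78 and 1.06 normalised reads in knockout, 7998 and 7666 in the wild-type rescue, and 4621 and 4757 in the NTF2-deletion rescue. The 5 knockout reads limit the ratio: the wild-type rescue was 3250-fold above knockout, with a 95% exact counting interval of 1390 to 10000, 7370-fold without knockout library A and 2080-fold without knockout library B. The NTF2-deletion rescue was 1940-fold above (833 to 5990), 4410-fold and 1250-fold without those libraries. The authors' deposited tables gave shrunken log2 values of 10.04 (SE 0.35) and 9.33 (SE 0.35). These and the 2 arsenite-treated rescues were all compared with the same 2 knockout libraries.

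**Figure D2:**
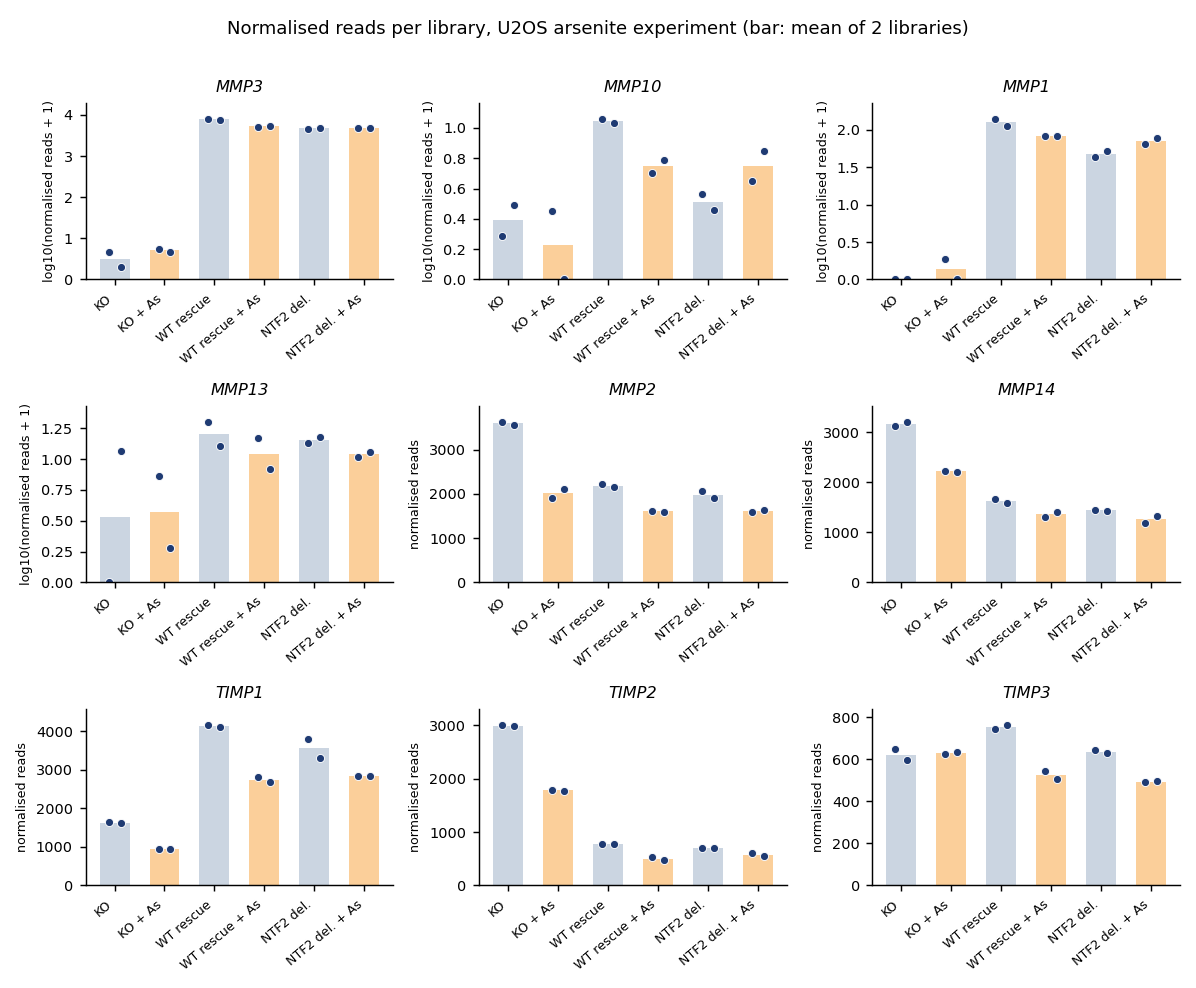
Normalised reads of the 9 genes in the second U2OS experiment, each panel with its own axis; points are the 2 libraries of a group, bars their mean, grey without and orange with sodium arsenite (As), on a log10(normalised reads + 1) scale for MMP3, MMP10, MMP1 and MMP13 and on a linear scale for the others. MMP3 and MMP1 are at or near 0 in knockout and high in all 4 rescue groups, TIMP1 is higher and TIMP2, MMP2 and MMP14 are lower in every rescue group than in unstressed knockout.

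MMP1 followed MMP3. It had 0 reads in both knockout libraries, 139 and 112 normalised reads in the wild-type rescue, and 41.9 and 51.3 in the NTF2-deletion rescue. Set against a floor of 3 reads over the knockout group, the wild-type rescue was at least 83.7-fold higher and the NTF2-deletion rescue at least 31.1-fold higher. MMP10 had 0.95 and 2.12 in knockout, 10.5 and 9.80 in the wild-type rescue, and 2.67 and 1.87 in the NTF2-deletion rescue. Its 3 knockout reads put the wild-type rescue 6.61-fold above (1.97 to 34.6, exact counting interval), 10.8-fold without knockout library B, and it was not called in the authors' deposited table. MMP13 had 0 and 10.58 in knockout, 19.0 and 11.8 in the wild-type rescue, and 12.5 and 14.0 in the NTF2-deletion rescue, so that 1 knockout library set its ratio of 2.89, which was 1.45 without knockout library A.

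TIMP1 was higher in the rescues and TIMP2 lower. TIMP1 had 1634 and 1625 normalised reads in knockout, 4168 and 4126 in the wild-type rescue (2.54-fold higher) and 3798 and 3317 in the NTF2-deletion rescue (2.18-fold higher). TIMP2 had 3011 and 2983 in knockout, 784 and 777 in the wild-type rescue (3.84-fold lower) and 706 and 703 in the NTF2-deletion rescue (4.25-fold lower). The 2 inhibitors thus changed places within every library, a ratio that no size factor touches. There were 0.543 and 0.545 TIMP1 reads per TIMP2 read in the knockout libraries, 5.32 and 5.31 in the wild-type rescue, and 5.38 and 4.71 in the NTF2-deletion rescue. In the first experiment the same ratio was 0.674 and 0.767 in knockout, 0.635 and 0.676 in wild type, and 0.977 and 1.0 in the G3BP1 rescue. TIMP3 differed little, with 647 and 596 in knockout, 746 and 764 in the wild-type rescue and 643 and 630 in the NTF2-deletion rescue. Its 0.28 (SE 0.12) in wild-type rescue against knockout (authors' deposited table) became 0.10 when the table was centred on its median.

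**Figure D3:**
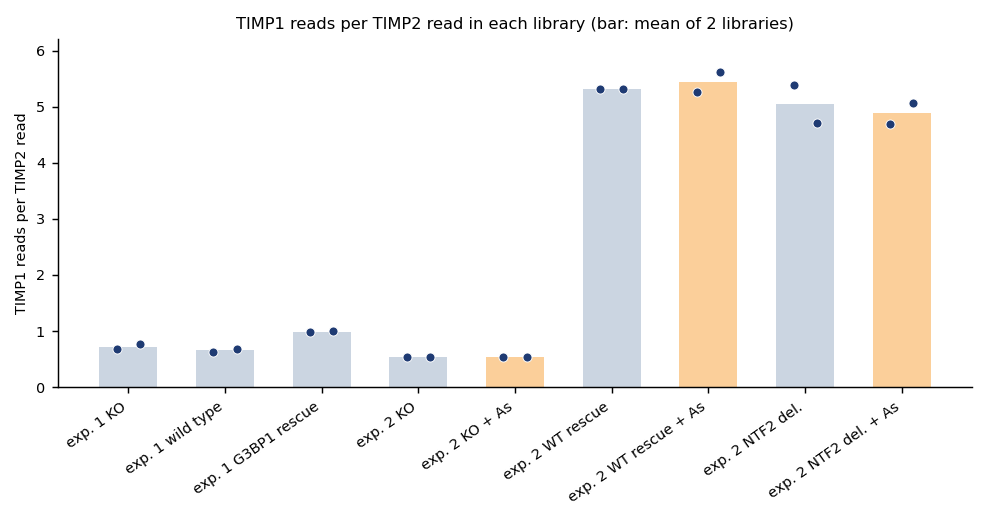
TIMP1 reads per TIMP2 read in each of the 18 U2OS libraries; points are libraries, bars the mean of the 2 libraries of a group, grey without and orange with sodium arsenite (As). Rescue libraries of the second experiment lie between 4.70 and 5.62, its knockout libraries between 0.530 and 0.545, and all libraries of the first experiment between 0.635 and 1.0.

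MMP2 and MMP14 were both lower in the rescues of the second experiment. MMP2 had 3623 and 3558 normalised reads in knockout, 2220 and 2143 in the wild-type rescue and 2055 and 1898 in the NTF2-deletion rescue. MMP14 had 3132 and 3205 in knockout, 1674 and 1585 in the wild-type rescue and 1449 and 1434 in the NTF2-deletion rescue. The wild-type rescue was thus 1.65-fold lower for MMP2 and 1.94-fold lower for MMP14. Since TIMP2 was lower by more, reads of MMP14 per TIMP2 read were higher, from 1.04 and 1.07 in knockout to 2.14 and 2.04 in the wild-type rescue. The authors' deposited table called 7 of 9 members in wild-type rescue against knockout, 4 higher and 3 lower (42.1% of all genes, 23.0% higher and 19.1% lower), and 6 of 8 in NTF2-deletion rescue against knockout (41.5%). It called 6 of 9 in wild-type rescue with arsenite against unstressed knockout (44.9%) and 7 of 9 in NTF2-deletion rescue with arsenite against unstressed knockout (43.0%), also in the authors' deposited tables. Their medians were 0.83, 0.36, 0.57 and 0.48 log2, also with MMP1 put at its bound, against -0.03, -0.02, -0.02 and -0.02 over all genes tested. Nothing is read from these counts, because the first comparison chose MMP3 and all 4 share its knockout libraries.

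The mutant without the NTF2 domain, the part through which G3BP1 dimerises, allows a comparison of the rescues. Without stress the wild-type rescue was 1.67-fold above the NTF2-deletion rescue for MMP3, 2.69-fold for MMP1 and 4.46-fold for MMP10, and in each of the 3 the groups did not overlap. The MMP10 ratio rests on 21 reads in the wild-type rescue against 5 in the NTF2-deletion rescue. MMP13 was 1.16-fold higher in the wild-type rescue, and its groups overlapped. TIMP1, TIMP2, MMP2, MMP14 and TIMP3 were at most 1.19-fold higher in the wild-type rescue. The difference between the authors' deposited tables against knockout was 0.71 (SE 0.49) for MMP3 and 1.42 (SE 0.77) for MMP1, given without a test because 1 of the 2 tables chose MMP3. That SE is too large, since both tables share the knockout libraries and their few reads. With arsenite in both, the rescues were 1.14-fold apart for MMP3, at 5192 and 5453 against 4688 and 4683. These groups did not overlap, but the difference between the authors' deposited tables, 0.22 (SE 0.52), carries the same oversized SE, as does that of MMP1 (0.33, SE 0.82), so no p is given for either. By a normal test of that difference 0 of 7 members passed at an adjusted p under 0.05, where 0.0785% of all genes passed. At an unadjusted p under 0.05 the count was also 0 of 7. Both tables share the knockout libraries, so the SE is too large for all 7 members, and neither count shows that the rescues were alike. For MMP3 and MMP1 the counts say nothing.

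Arsenite lowered most of the members that were well counted. In knockout cells 4 of the 5 members with an adjusted p fell in the authors' deposited table and 0 rose, where 10.9% of all genes fell and 8.56% rose. MMP2 went from 3623 and 3558 to 1916 and 2105 normalised reads (authors' deposited table, -0.82, SE 0.08, adjusted p = 8.03e-26). TIMP1 went from 1634 and 1625 to 949 and 952 (authors' deposited table, -0.76, SE 0.09, adjusted p = 1.93e-15). TIMP2 and MMP14 also fell, by 0.74 (adjusted p = 9.34e-22) and 0.51 log2 (adjusted p = 3.37e-11) in the authors' deposited table. TIMP3 stood apart at 647 and 596 before and 627 and 633 after arsenite, overlapping groups with a change of 0.02 (SE 0.12; adjusted p = 0.959, authors' deposited table). MMP3, MMP1, MMP10 and MMP13 had too few reads in knockout cells for an adjusted p. The unstressed knockout libraries also belong to the comparison that chose MMP3, so these p-values are not free of that choice.

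In the wild-type rescue all 7 members with an adjusted p fell, where 12.2% of all genes fell and 8.18% rose, in the authors' deposited table. MMP3 went from 7998 and 7666 to 5192 and 5453 normalised reads without overlap, 1.53-fold lower (authors' deposited table, -0.61, SE 0.04). MMP1 went from 139 and 112 to 81.8 and 80.5 (authors' deposited table, -0.52, SE 0.16). The inhibitors fell by like amounts, TIMP1 by 0.65, TIMP2 by 0.65 and TIMP3 by 0.55 in the authors' deposited table, with TIMP3 at 746 and 764 before and 547 and 507 after. This table shares the unstressed wild-type rescue libraries with the table that chose MMP3. The changes are therefore given without a p, and nothing is read from the count.

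In the NTF2-deletion rescue 3 of 7 members fell and 0 rose, where 6.14% of all genes fell and 2.43% rose, in the authors' deposited table. They were TIMP1 (-0.33, SE 0.06, adjusted p = 4.87e-06), MMP2 (-0.29, SE 0.07, adjusted p = 0.000367) and TIMP3 (-0.32, SE 0.10, adjusted p = 0.0178), all from the authors' deposited table. MMP3 was 4621 and 4757 before and 4688 and 4683 after, overlapping (authors' deposited table, -0.02, SE 0.05, adjusted p = 0.948). MMP1 was 41.9 and 51.3 before and 63.7 and 77.2 after, higher in both libraries, with 0.21 (SE 0.13; adjusted p = 0.454, authors' deposited table). The deposited fold changes of this table were shrunk the most, with a prior width of 0.278 log2 against 0.370 in the wild-type rescue and 0.636 in knockout. The unshrunken ratios for arsenite were 1.53-fold lower for MMP3 in the wild-type rescue and 1.01-fold lower in the NTF2-deletion rescue.

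**Figure D4:**
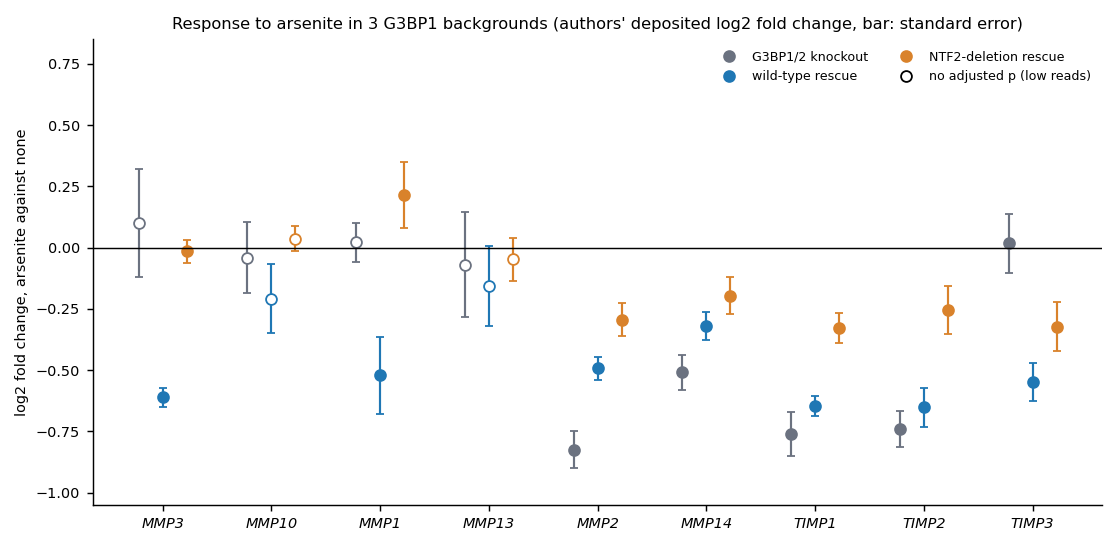
Log2 fold change of arsenite-treated against untreated cells for the 9 genes in knockout (grey), wild-type rescue (blue) and NTF2-deletion rescue (orange), from the authors' deposited tables; bars are standard errors and open points had too few reads for an adjusted p. MMP3 falls by 0.61 in the wild-type rescue and stays at -0.02 in the NTF2-deletion rescue, and TIMP3 is at 0.02 in knockout.

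Whether arsenite acted differently between the backgrounds was tested on the differences of the deposited log2 fold changes, adjusted over all genes whose base mean reached 10 in each table. Between the wild-type and the NTF2-deletion rescue 2 of 8 members, MMP3 and TIMP1, passed this test, where 0.328% of all genes did. Nothing is read from that count, since it includes MMP3. MMP3 differed by -0.60 (SE 0.06), given without a p because its baseline is the unstressed wild-type rescue libraries by whose values it was chosen. TIMP1 differed by -0.32 (SE 0.07), falling more in the wild-type rescue, and MMP1 by -0.74 (SE 0.21), which did not pass. No p is given for TIMP1 and MMP1 either, since they share that baseline. Between wild-type rescue and knockout 2 of 5 members passed (4.51% of all genes), MMP2 at 0.33 (SE 0.09) and TIMP3 at -0.57 (SE 0.14). Both baselines of this difference are the libraries of the comparison that chose MMP3. The values are therefore given without a p, and nothing is read from the count. In these libraries MMP2 fell less in the rescue than in knockout, and TIMP3 fell in the rescue but not in knockout. The knockout baseline also enters the next comparison, so its p-values are not free of that choice. Between NTF2-deletion rescue and knockout 4 of 5 differed (7.12% of all genes), MMP2 by 0.53, MMP14 by 0.31, TIMP1 by 0.43 and TIMP2 by 0.49, each falling less in the rescue. The MMP14 call (adjusted p = 0.0408) was lost with no base mean minimum (0.0753), with centring (0.0507), with the shrinkage undone (0.0619) and at a threshold of 0.01. Across these backgrounds G3BP1 itself moved with arsenite, 1.18-fold lower in knockout, 1.29-fold higher in the wild-type rescue and 1.18-fold higher in the NTF2-deletion rescue, and its part in the differences was not tested.

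After these responses the order of the MMP3 levels was knockout (1.06 to 3.78) and knockout with arsenite (3.68 to 4.52), which overlapped; then the NTF2-deletion rescue without (4621 to 4757) and with arsenite (4683 to 4688), which overlapped; then the wild-type rescue with arsenite (5192 to 5453) and without it (7666 to 7998). With arsenite in both arms, no deposited table was used for rescue against knockout. By the ratio of group means TIMP1 was then 2.89-fold higher and TIMP2 3.53-fold lower in the wild-type rescue than in knockout. MMP14 was 1.63-fold and MMP2 1.25-fold lower, and TIMP3 was lower by a log2 ratio of -0.26. These ratios have no test.

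Precipitation of FLAG-G3BP1 asked which transcripts accompany the protein in the kidney-derived line. There MMP1 and MMP3 had 0 reads in all 6 libraries, so the MMP3 transcript could not be measured in the precipitate; a count of 0 over a group allows up to 3 reads. Of 7 members with an adjusted p, 3 were called in the authors' deposited table, 2 higher and 1 lower, where 56.1% of all genes were called, 24.7% higher and 31.4% lower. TIMP1 was enriched by 1.00 log2 (SE 0.13, adjusted p = 6.72e-13) and TIMP3 by 0.69 (SE 0.11; adjusted p = 2.54e-09, authors' deposited table). MMP14 was depleted by -1.54 (SE 0.61; adjusted p = 0.0222, authors' deposited table), on 4, 11 and 3 reads in the precipitates and 23, 12 and 22 in the inputs. TIMP2 (-0.29, SE 0.18, adjusted p = 0.161) and MMP2 (-0.08, SE 0.34, adjusted p = 0.851) were not called in the authors' deposited table. MMP2 had 54, 40 and 29 reads against 35, 57 and 36, overlapping, and MMP10 and MMP13 had at most 4 reads in any library. Reads per library were not recovered for the 3 TIMP genes in this table. The median was -0.29 over the members tested and -0.26 over all genes tested.

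**Figure D5:**
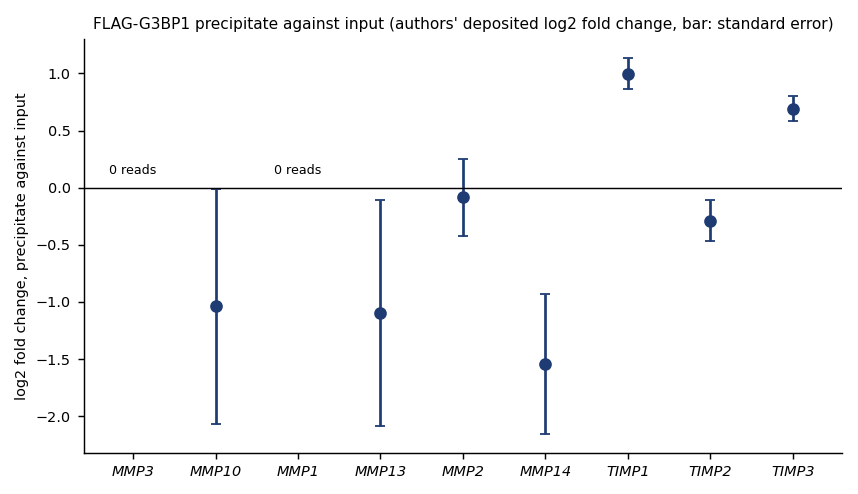
Log2 fold change of FLAG-G3BP1 precipitate against input from the authors' deposited table for the 9 genes; points are the deposited values on 3 libraries per group and bars their standard errors. TIMP1 at 1.00 and TIMP3 at 0.69 lie above 0, MMP14 at -1.54 lies below, and MMP3 and MMP1 had 0 reads.

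Among the other genes of the protease system, the plasminogen activators and pericellular regulators moved in many places. Of 15 such genes, 13 were tested in knockout against wild type, with 2 higher and 9 lower, where 18.4% and 19.4% of all genes were (list median -0.31, all genes 0.01). PLAU, the urokinase that generates plasmin, an activator of latent MMPs, was at -2.49 (SE 0.09), and CD44, a hyaluronan receptor that docks MMPs, at -1.82 (SE 0.05) in the authors' deposited table. In wild-type rescue against knockout the list had 7 higher and 5 lower of 12, where 23.0% and 19.1% of all genes were, with PLAU at 3.48, CD44 at 3.36 and the urokinase receptor PLAUR at 2.40 in the authors' deposited table. Under arsenite 9 of 12 fell in knockout (10.9% of all genes), 11 of 12 in the wild-type rescue (12.2%) and 11 of 12 in the NTF2-deletion rescue (6.14%). Median changes were -0.64, -0.46 and -0.31 log2, each with all genes within 0.01 of 0.

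Transcription factors and cytokines known to induce MMP genes made up a list of 19. In knockout against wild type 2 were higher and 10 lower of 15 tested (18.4% and 19.4% of all genes), with a list median of -0.50 against 0.01 over all genes. In wild-type rescue against knockout 12 were higher and 2 lower of 16 (23.0% and 19.1% of all genes), with a median of 0.89 against -0.03. FOSL1, an AP-1 subunit, was at -1.33 (SE 0.07, adjusted p = 1.9e-70) in knockout against G3BP1 rescue and at 3.49 (SE 0.10) in wild-type rescue against knockout in the authors' deposited tables. JUN, its partner, was at 2.17 (SE 0.08) in that same authors' deposited table of rescues. Arsenite raised 7 of 14 in knockout (8.56% of all genes), 6 in the wild-type rescue (8.18%) and 5 in the NTF2-deletion rescue (2.43%). FOSB rose by 7.64, 1.80 and 1.37 log2 in these 3 backgrounds (authors' deposited tables). FOS rose by 6.13, 2.41 and 1.69 log2 there. Among the MMP and TIMP members, 0 were called higher, with 5 tested in knockout and 7 in each rescue. MMP1, MMP3, MMP10 and MMP13 had no adjusted p in knockout, so a rise could not be called there. MMP1 was 1.49-fold higher without overlap in the NTF2-deletion rescue, though not called, and 1.61-fold lower in the wild-type rescue. Whether these factors bear on the MMP levels was not tested.

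The other MMP genes and TIMP4 made up a list of 18. In knockout against wild type 4 were higher and 2 lower of 12 tested, where 37.8% of all genes were called, and in wild-type rescue against knockout 2 were higher and 4 lower of 8, where 42.1% were. MMP9, the second gelatinase, stood at 3.84 (SE 0.11, adjusted p = 3.7e-262) in knockout against wild type and at 2.23 (SE 0.08) in wild-type rescue against knockout in the authors' deposited tables, so knockout exceeded wild type in the first experiment and the rescue exceeded knockout in the second. In the first experiment knockout also exceeded the G3BP1 rescue, by 0.47 (SE 0.07; adjusted p = 7.24e-10, authors' deposited table), the other direction from the rescue of the second. MMP24, a membrane-type protease, was at -3.00 (SE 0.23) and MMP15, another of that type, at -1.61 (SE 0.17) in wild-type rescue against knockout in the authors' deposited table.

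Likeness of pattern was measured as the root mean square difference of the deposited log2 fold change over the 10 U2OS tables, among 15162 genes whose base mean reached 10 in each. Nearest to MMP3 was G3BP1 at 2.17 log2, followed by CD22 at 3.14, MARCHF4 at 3.19, SP140 at 3.21 and ESM1 at 3.33. MMP3 and MMP1 did not reach that base mean themselves, at 3.40 and 0.24 in the arsenite response of knockout. Genes as scarce in knockout were therefore left out beforehand, and MMP3 was chosen for its large change. The distances cannot show whether any gene is like MMP3. Nearest to MMP1 were RGS4 at 0.61, SLAMF7 at 0.63 and DGKI at 0.72. In wild-type rescue against knockout these 3 were at 4.02, 4.16 and 3.69, beside 5.18 for MMP1, in the authors' deposited table. The tables share libraries, and likeness here is a description.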

How the data were processed

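Poly-A libraries were prepared strand-specifically, per the labels' protocols. Reads were aligned with STAR (2.7.0f for the precipitation and the first U2OS experiment) and compared with DESeq2 (2.11.40.6), per the submitters' processing notes; the genome build, the annotation and the use of strand in counting are not given in the sources used here. The 11 tables are the authors' own comparisons. The deposited base mean is a signal, the mean of the normalised reads of all libraries compared. The deposited fold change and its standard error are on the log2 scale. The deposited Wald statistic is a score, their quotient. The deposited p-value and adjusted p-value are the authors'. The 4 summary lines of each table were left out.

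From these values, size factors were read off the base mean steps that 1 read makes, and whole reads per library were worked out where exactly 1 set of whole numbers gave the base means of all 10 U2OS tables (9 of 9 members, 300 of 300 check genes and 100 of 100 genes drawn at random for a self-test) or that of the precipitation (6 of 9 members, not the TIMP genes); libraries are lettered, since the tables carry no replicate numbers. No count test was run on them. Fold changes were shrunk by the authors with prior widths of 0.278 to 1.34 log2, estimated here. Differences between tables were tested with a normal test on the deposited values and Benjamini-Hochberg adjustment over genes whose base mean reached 10; on simulated data with 200 genes changed by 1 log2, it recovered 72.0% among 15648 genes for the arsenite response of wild-type rescue minus knockout, 75.5% among 15442 for NTF2-deletion rescue minus knockout and 97.0% among 15865 for wild-type minus NTF2-deletion rescue. It recovered 51.0% among 16553 for the rescues both with arsenite and 43.5% among 16210 for both unstressed. An exact permutation test of 2 against 2 libraries cannot go below p = 0.333 and was not used. Calls are at an adjusted p under 0.05.

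The members and all gene lists were chosen with earlier results of these data known. Named genes were the 9 members, G3BP1, genes of nearest pattern and up to 3 called genes of largest change per list and comparison, at a base mean of 100 or more. Python 3.11.15 with pandas 2.3.3, numpy 2.4.6 and scipy 1.17.1 was used. Alternatives were another threshold, a minimum fold change, other filters, centring, division of the statistics by their robust spread, undoing the shrinkage and leaving out each library.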

Additional observations from a re-analysis of the deposited data

Results flagged for a closer look

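The arsenite response of some members differed between G3BP1 backgrounds, by tests of the difference between deposited log2 fold changes. The tests were Benjamini-Hochberg adjusted over all genes that reached the base mean minimum. For wild-type rescue minus NTF2-deletion rescue 2 of 8 members passed, where 0.328% of all genes did. That count includes MMP3, whose pass is not read as a result. For wild-type rescue minus knockout 2 of 5 passed (4.51% of all genes), and for NTF2-deletion rescue minus knockout 4 of 5 (7.12%). The counts with the wild-type rescue are given as a description only. Wild-type rescue minus NTF2-deletion rescue was -0.60 for MMP3 and -0.32 for TIMP1. Wild-type rescue minus knockout was 0.33 for MMP2 and -0.57 for TIMP3. No p is given for these, because their baselines include the unstressed wild-type rescue libraries, by whose values MMP3 was chosen. The knockout libraries behind the remaining differences belong to the same choosing comparison, so their p-values are not free of that choice. NTF2-deletion rescue minus knockout was 0.53 for MMP2 (adjusted p = 9.46e-06), 0.31 for MMP14 (adjusted p = 0.0408), 0.43 for TIMP1 (adjusted p = 0.00215) and 0.49 for TIMP2 (adjusted p = 0.00189). The MMP14 difference was the least stable: its adjusted p was 0.0753 with no base mean minimum, 0.0507 with centring and 0.0619 with the shrinkage undone.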

How the results depend on the processing

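No paired analysis was possible because the tables hold 1 value per comparison and carry no replicate numbers. Requiring a log2 fold change of at least 1 as well left 2 members called in knockout against wild type, 1 for knockout and G3BP1 rescue, 2 for wild type and G3BP1 rescue, 4 in wild-type rescue against knockout, 0 in each arsenite response and 1 in the precipitation. Dividing the statistics by their robust spread, 3.86 to 9.34 where 1 is expected without change, left 2, 1, 4 and 3 in the first 4 of these comparisons, 2 in NTF2-deletion rescue against knockout, 2 in each arsenite-treated rescue against knockout and 0 in the precipitation. MMP3 then kept its call between knockout and G3BP1 rescue but not for knockout with wild type (adjusted p = 0.522). Among the arsenite responses, the robust spread ended the calls of MMP1 and MMP14 in the wild-type rescue. It also ended that of TIMP3 in the NTF2-deletion rescue (adjusted p = 0.186). Shares of all genes under the minimum fold change and the robust spread are not given here. The member counts under them therefore do not say whether members lost more calls than other genes. Counts of differences between tables kept within 1.5 times of the main count under each alternative run. Over 87 tests of single members, called or not, 32 calls were lost with the robust spread and 5 at an adjusted p under 0.01. No call changed direction. The calls were fewer than 87, so the share of calls lost with the robust spread is larger than 32 of 87. Centring on the table median ended the call of TIMP3 in wild-type rescue against knockout and added TIMP3 in knockout against G3BP1 rescue (adjusted p = 0.0143), TIMP3 in wild-type rescue with arsenite against knockout (adjusted p = 0.000392) and TIMP2 in the precipitation (adjusted p = 0.0399). The authors' calls could not be repeated without a library; ratios of group means moved by more than 1.5 times without a library for MMP3, MMP1, MMP10 and MMP13 only, and some uncalled MMP10 and MMP13 ratios then changed direction. The reads of MMP10 and MMP13, at most 26.1 normalised reads in any library, limit what can be said of them. The cause of the changes was not tested.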

Other observations

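Matrix substrates of these enzymes were counted as a further list. Of 17 substrate genes, all tested in knockout against wild type, 4 were higher and 9 lower, where 18.4% and 19.4% of all genes were (list median -0.31, all genes 0.01). COL3A1, a fibrillar collagen, was at 4.38 (SE 0.06), and COL1A1 and fibronectin (FN1) were at -2.73 (SE 0.05) and -2.75 (SE 0.05) in the authors' deposited table. In wild-type rescue against knockout 4 were higher and 9 lower of 16 (23.0% and 19.1% of all genes), with LAMA5, a laminin chain, at -4.58 (SE 0.08), COL3A1 at -4.42 (SE 0.06) and COL1A1 at -1.56 (SE 0.05) in the authors' deposited table. In the precipitation 12 of 14 were lower and 1 higher, where 31.4% and 24.7% of all genes were, with a list median of -3.10 against -0.26 over all genes. VCAN, HSPG2 and LAMA5 were at -3.38, -3.35 and -3.31 in the authors' deposited table. Of 22 ADAM and ADAMTS proteases, 11 were higher and 5 lower of 20 in knockout against wild type (18.4% and 19.4% of all genes), with ADAMTS1 at 3.55 (SE 0.12) and ADAMTS15 at -3.13 (SE 0.14) in the authors' deposited table. ADAMTS1 rose with arsenite in knockout by 1.96 (SE 0.10; authors' deposited table, adjusted p = 8.4e-91), where MMP2, MMP14, TIMP1 and TIMP2 fell.

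In the RefSeq order of chromosome 11 the cluster runs BIRC2, TMEM123, MMP7, MMP20, MMP27, MMP8, MMP10, MMP1, MMP3, MMP12, MMP13, DCUN1D5 and DYNC2H1, all but the outer 4 being MMP genes. MMP7, matrilysin, went against MMP3, at 1.79 (adjusted p = 0.000377) in knockout against wild type and 1.05 (adjusted p = 0.00376) in knockout against G3BP1 rescue in the authors' deposited tables. Its base means there were only 14.9 and 16.7. MMP27 had a base mean of 0 in each of the 10 U2OS tables. In wild-type rescue against knockout the flanking BIRC2 and DCUN1D5 were at 1.04 and 1.37 and TMEM123 at -0.50 in the authors' deposited table, beside 10.04 for MMP3. MMP12 was at 0.49 (SE 0.50) there on a base mean of 1.70, without an adjusted p, so its change was not measured well.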
